A study of Rattus norvegicus with 8 samples.

Results

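Leptin given in the first days of life was compared with saline, over both maternal diets at once, in hypothalamic RNA of female Sprague-Dawley rats aged 21 days. The comparison uses all 8 samples of the series, each hybridised to 1 Affymetrix Rat Gene 1.0 array: 4 arrays of leptin-treated rats (CR-l and Con-l, 2 each) against 4 arrays of saline-treated rats (CR-s and Con-s, 2 each). It was computed, for each gene, as the mean of the CR-l and Con-l group means minus the mean of the CR-s and Con-s group means on the log2 intensity scale, so a positive difference means higher after leptin. The CR groups are offspring of dams whose calories were cut by 50% between gestation days 11 and 21 and again after birth, and the Con groups are offspring of dams that ate normally. Leptin or saline was given over postnatal days 2 to 8, so 13 days lay between the last treatment day and tissue collection. Every sample is female, of the same strain, age and tissue. The labels leave unstated whether an array holds RNA of 1 rat or of several, and some wording could be taken to place the treatment on the dams, so p-values measure only the spread between these arrays. The design note writes Con-r for the group that the sample titles call Con-l.

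Leptin is a hormone of fat cells that reports energy stores to the brain. In the hypothalamus it binds its receptor on arcuate neurons, activates the kinase JAK2 and the transcription factor STAT3, raises the feedback inhibitor SOCS3, lowers the appetite-raising peptides NPY and AgRP and raises the appetite-lowering peptides made from Pomc and Cartpt. In newborn rodents a surge of leptin also promotes the outgrowth of arcuate axons to their target nuclei. The comparison asks whether leptin in that early window left a shared difference in hypothalamic RNA at 21 days, whatever the maternal diet.

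Median intensity ranged from 112 to 114 between arrays, and replicates of a group correlated at 0.995 over all probe sets. The first principal component of the 14506 named genes (28.1% of the variance) placed the CR arrays at 5.25 to 10.1 and the Con arrays at -9.23 to -4.71. No such split by treatment was seen on the second (17.3%), where the leptin arrays lay at -2.88 to 5.37 and the saline arrays at -14.0 to 3.06, the lowest being CR-s replicate B. Some genes of hypothalamic peptides measured high on every array, among them Pmch at 11.09 to 11.53, Oxt at 10.96 to 11.70 and Hcrt at 9.21 to 9.75 on the log2 scale. Others had means below the median gene (7.45), among them Pomc (6.35), Crh (7.12) and Ghrh (6.03). The pituitary hormone gene Prl stayed at 4.25 to 4.49. Cga, another pituitary hormone gene, measured 9.19 on Con-l replicate A and 5.83 to 6.19 on the other arrays.

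No gene differed between leptin and saline at an adjusted p under 0.05 (limma, 0 of 14506, or 0%). The smallest adjusted p was 0.763. An unadjusted p under 0.05 was reached by 707 genes (4.87%), 365 higher (2.52%) and 342 lower (2.36%) after leptin, where a flat distribution of p would give 725. The leptin and saline arrays did not overlap in 344 genes (2.37%), 184 with leptin higher (1.27%) and 160 with leptin lower (1.1%). These same genes are the ones that reach the smallest two-sided p of the exact permutation test over the 70 assignments of 4 arrays against 4, which is 0.0286, and none is below an adjusted p of 1 in that test. On the same 8 arrays and in the same limma model, CR against Con gave 175 genes (1.21%) at an adjusted p under 0.05 and 2285 (15.8%, of which 6.71% higher and 9.04% lower in CR) at an unadjusted p under 0.05.

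**Figure D1:**
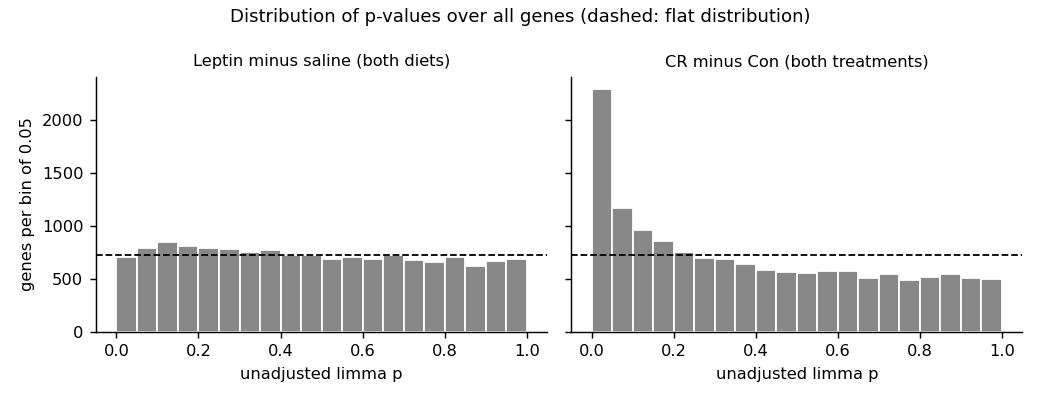
Number of genes (vertical axis) in each bin of unadjusted limma p of width 0.05 (horizontal axis), for leptin minus saline on the left and CR minus Con on the right, over 14506 genes each; the dashed line is a flat distribution. The lowest leptin bin holds 707 genes, under the dashed line at 725, and the lowest bin of the diet comparison holds 2285.

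The median absolute leptin difference was 0.05 on the log2 scale, 95% of genes lay within 0.16 and 99% within 0.26. The median standard error was 0.06, and the median half-width of the 95% confidence interval was 0.14. For 14364 of 14506 genes the unadjusted interval of the leptin difference lay inside a 1.5-fold change (0.58 on the log2 scale) in either direction. Point estimates beyond 1.5-fold were limited to Adpgk, Cga and Grm2 on the higher side and the olfactory receptor gene Or1o2 (-0.61, SE 0.30) on the lower side.

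Npy, the gene of neuropeptide Y, measured 10.24 and 9.90 in CR-l and 9.11 and 8.97 in Con-l, against 9.95 and 9.76 in CR-s and 9.50 and 9.27 in Con-s (log2 intensity). The CR-l and CR-s arrays overlapped, and both Con-l arrays lay below both Con-s arrays. Averaged over the diets the difference was -0.06 (SE 0.10, 95% interval -0.29 to 0.16, limma adjusted p = 0.945). Agrp, whose product blocks melanocortin receptors, measured 8.33 and 7.94 in CR-l and 7.53 and 7.37 in Con-l, against 8.17 and 8.29 in CR-s and 7.54 and 7.50 in Con-s. Its leptin and saline arrays overlapped within each diet, with a pooled difference of -0.08 (SE 0.09, interval -0.30 to 0.13, limma adjusted p = 0.925). For both genes the spread over the leptin arrays (SD 0.61 for Npy and 0.43 for Agrp, n = 4) was mostly the step between the diets.

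Pmch, the gene of melanin-concentrating hormone in the lateral hypothalamus, was the energy-balance gene of 15 measured whose treatment groups did not overlap (2.37% of all genes). It measured 11.21 and 11.09 in CR-l and 11.13 and 11.19 in Con-l, against 11.23 and 11.26 in CR-s and 11.53 and 11.22 in Con-s. All leptin arrays lay below all saline arrays, but the gap between the nearest arrays was small and the difference of -0.15 (SE 0.07) did not pass (limma adjusted p = 0.913, exact permutation p = 0.0286 unadjusted, the smallest possible). Without Con-s replicate A it was -0.08 and without Con-s replicate B -0.23. Hcrt, the gene of the wake-promoting and appetite-raising orexins, averaged 9.36 ± 0.11 after leptin and 9.52 ± 0.16 after saline (SD, n = 4 each), a difference of -0.16 (SE 0.09, limma adjusted p = 0.913). The Hcrt difference was -0.07 without Con-s replicate A and -0.25 without Con-s replicate B. The fixed list of appetite-raising peptides had 3 members higher and 8 lower of 11 measured, a median of -0.08 beside 0.00 for all genes, with 0 passing and 0 at an unadjusted p under 0.05 (limma). In bulk tissue fewer cells of a type and less RNA per cell cannot be told apart.

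Among the peptides that lower food intake, Cartpt (cocaine- and amphetamine-regulated transcript) had the smallest p of the energy-balance genes. Its log2 intensity was 9.82 and 9.69 in CR-l and 10.04 and 9.88 in Con-l, against 9.90 and 9.88 in CR-s and 10.20 and 10.06 in Con-s. Within each diet both leptin arrays lay below both saline arrays. The pooled difference was -0.15 (SE 0.06, interval -0.29 to -0.01), with a limma p of 0.0379 unadjusted and 0.913 adjusted, and it ranked 523 of 14506 genes by p. Pomc, the precursor of the melanocortins, measured 6.22 and 6.21 in CR-l and 6.43 and 6.31 in Con-l, against 6.26 and 6.34 in CR-s and 6.58 and 6.45 in Con-s. These levels lay below the median gene (7.45). Here too the leptin arrays were the lower ones within each diet, by -0.09 (CR) and -0.14 (Con), and the pooled -0.11 (SE 0.05, limma adjusted p = 0.913) did not pass. The direction of these estimates, lower after leptin, held without any single array for both genes (-0.19 to -0.11 for Cartpt and -0.15 to -0.08 for Pomc).

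Oxt, the oxytocin gene, measured 11.04 and 11.10 in CR-l and 11.28 and 11.29 in Con-l, against 10.96 and 11.08 in CR-s and 11.70 and 11.45 in Con-s. The Con-l arrays were below the Con-s arrays while the CR arrays of both treatments overlapped, and the pooled value was -0.12 (SE 0.07, limma adjusted p = 0.913). Trh and Crh, hypothalamic releasing hormones that also lower food intake, stood at -0.14 (SE 0.11) and -0.00 (SE 0.05), Avp (vasopressin) at 0.10 (SE 0.09) and Bdnf, a growth factor that restrains feeding, at -0.05 (SE 0.04). Without 1 array these ranged from -0.18 to -0.05 for Oxt, -0.26 to -0.02 for Trh, 0.02 to 0.18 for Avp and -0.07 to -0.03 for Bdnf. Of the 16 measured appetite-lowering peptides 4 were higher and 12 lower (median -0.03), 0 passed, and Cartpt was the member at an unadjusted p under 0.05 (4.87% of all genes). The melanocortin receptor genes went opposite ways without passing: Mc3r at -0.19 (SE 0.10, and -0.27 to -0.10 without 1 array) and Mc4r at 0.12 (SE 0.14).

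**Figure D2:**
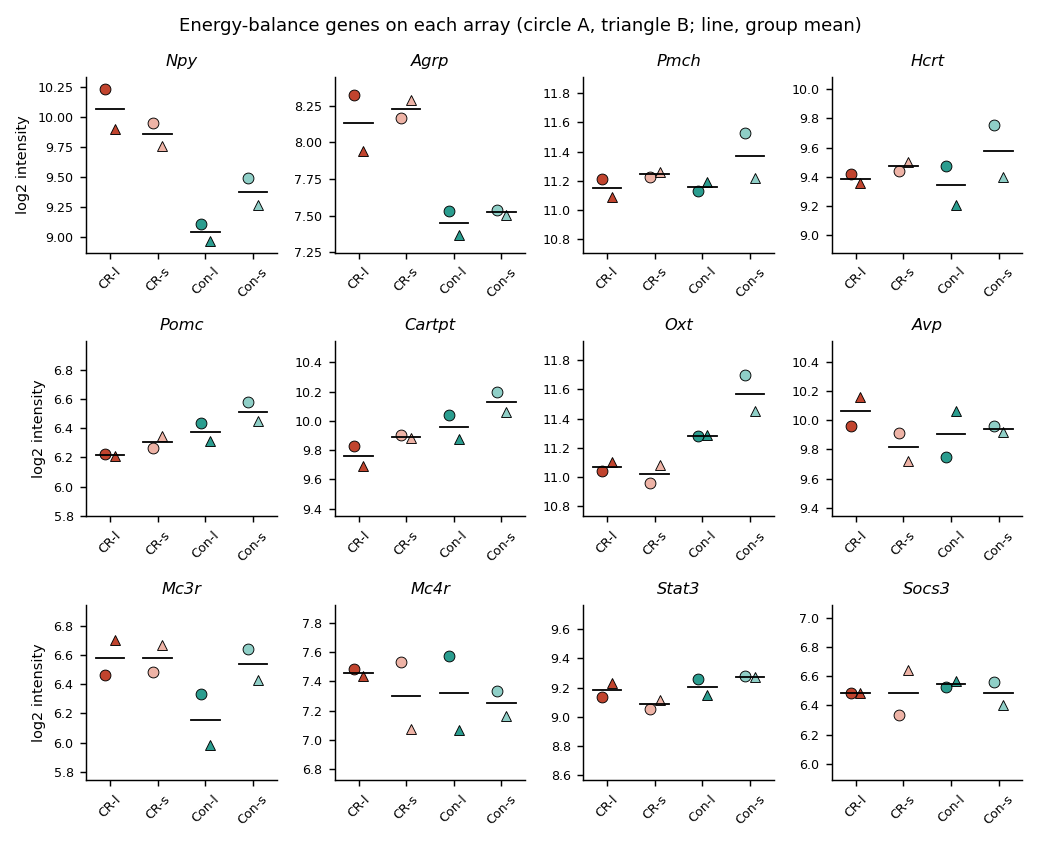
Log2 intensity (vertical axis) of 12 energy-balance genes on each array, by group (horizontal axis); circles are replicate A, triangles replicate B, and lines the group means. Npy and Agrp step between CR and Con groups, while leptin and saline symbols overlap for all 12 genes but Pmch over both diets.

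Over the 15 measured energy-balance genes (Lepr, the receptor gene itself, has no uniquely named probe set and was not analysed here) 11 were lower and 4 higher after leptin, with a median of -0.08. In CR rats 7 were higher and 8 lower, and in Con rats 2 were higher and 13 lower. The 2 leptin differences had the same sign in 8 of the 15 genes. All 15 intervals of the pooled difference lay inside a 1.5-fold change. The hypothalamic neuron markers, which share genes with this list, were measured in 11, of which 10 were lower (median -0.10), and their mean level over the list was 9.20 and 9.12 in CR-l and 9.02 and 8.94 in Con-l, against 9.17 and 9.16 in CR-s and 9.23 and 9.05 in Con-s. These array means overlap between the treatments. General neuron markers had 4 of 10 higher and a median of -0.01.

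The leptin receptor pathway itself showed little. Of 22 measured genes 14 were higher and 8 lower (median 0.01, range -0.11 to 0.12), and 0 passed. Jak2, the receptor's kinase, was the member at an unadjusted p under 0.05 (4.87% of all genes) and the member whose groups did not overlap (2.37% of all genes). It measured 8.28 and 8.28 in CR-l and 8.36 and 8.34 in Con-l, against 8.23 and 8.06 in CR-s and 8.25 and 8.24 in Con-s. Every leptin array was above every saline array, by a mean of 0.12 (SE 0.05), with a limma p of 0.0446 unadjusted and 0.913 adjusted. Stat3, which carries the signal to the nucleus, differed by 0.01 (interval -0.10 to 0.13) and Socs3 by 0.03 (interval -0.15 to 0.20). Socs3 measured 6.48 and 6.48 in CR-l and 6.53 and 6.56 in Con-l, inside the span of 6.33 to 6.64 of the saline arrays. Ptpn1, the phosphatase that switches JAK2 off, stood at 0.07 (SE 0.04), Mtor, a growth and nutrient-sensing kinase, at 0.09 (SE 0.04), and Cish, a SOCS family member induced by STAT5, at -0.11 (SE 0.06). The pathway genes Lepr, Leprot, Irs2 and Pik3ca have no uniquely named probe set and were not analysed here.

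STAT factors bind the palindrome TTCNNNGAA, which reads the same on both strands. It was searched from 250 bases before to 50 bases after each start site among RefSeq promoters (GRCr8), because the leptin receptor signals through STAT3. Of 33469 promoters, listed for 27457 genes, 2970 (8.87%) held a match. Among the measured genes 11970 had a listed promoter, and 938 (7.84%) held a match. Of the 22 leptin pathway genes with a listed promoter 2 held a match (Cish and Socs1), of the 14 such energy-balance genes 1 (Bdnf), and of the 13 such genes among the 20 leading genes named further on 1 (Haghl). The promoters of these pathway and peptide genes are shown with that of Socs3, 5′ to 3′ on the gene's strand, matches in capitals: Cish at chr8:116850719-116851018 (plus strand, 4 matches), Socs1 at chr10:5389324-5389623 (plus, 1 match), Bdnf at chr3:116619383-116619682 (plus, 1 match) and Socs3 at chr10:103694719-103695018 (minus, 0 matches in this window).
Cish: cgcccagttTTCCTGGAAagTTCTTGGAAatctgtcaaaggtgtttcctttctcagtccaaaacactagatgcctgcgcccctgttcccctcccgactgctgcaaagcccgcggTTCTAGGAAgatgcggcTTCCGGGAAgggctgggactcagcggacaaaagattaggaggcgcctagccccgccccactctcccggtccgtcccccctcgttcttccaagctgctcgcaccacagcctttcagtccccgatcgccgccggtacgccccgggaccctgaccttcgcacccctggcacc
Socs1: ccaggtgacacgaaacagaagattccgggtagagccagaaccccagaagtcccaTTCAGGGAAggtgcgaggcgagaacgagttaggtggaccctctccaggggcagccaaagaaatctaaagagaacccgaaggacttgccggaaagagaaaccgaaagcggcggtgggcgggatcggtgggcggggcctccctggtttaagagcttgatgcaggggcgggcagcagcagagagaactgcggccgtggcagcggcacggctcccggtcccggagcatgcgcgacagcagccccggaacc
Bdnf: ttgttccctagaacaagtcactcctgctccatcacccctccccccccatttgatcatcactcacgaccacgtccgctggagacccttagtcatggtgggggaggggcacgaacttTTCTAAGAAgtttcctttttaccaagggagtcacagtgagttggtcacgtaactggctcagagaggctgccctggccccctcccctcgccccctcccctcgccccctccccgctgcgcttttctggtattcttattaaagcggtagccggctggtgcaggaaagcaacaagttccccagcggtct
Socs3: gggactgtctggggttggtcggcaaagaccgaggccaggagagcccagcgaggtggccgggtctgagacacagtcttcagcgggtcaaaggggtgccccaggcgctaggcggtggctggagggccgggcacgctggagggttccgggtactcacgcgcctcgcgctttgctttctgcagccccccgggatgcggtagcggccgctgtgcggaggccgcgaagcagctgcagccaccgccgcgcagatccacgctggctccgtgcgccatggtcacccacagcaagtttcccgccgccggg
The leptin differences beside them were -0.11 for Cish, 0.01 for Socs1, -0.05 for Bdnf and 0.03 for Socs3, none of which passed. A match is a description of the letters and not a bound site. The 0 matches of Socs3 hold for the window shown, which was placed by the listed start site. They say nothing of motifs elsewhere at the gene. Cish, with 4 matches, measured 6.46 and 6.45 in CR-l and 6.84 and 6.64 in Con-l, against 6.55 and 6.72 in CR-s and 6.75 and 6.81 in Con-s, so the treatments overlapped.

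Receptors that read the peptides gave 11 higher and 4 lower of 15 measured, a median of 0.04 and 0 passing. Npy1r, a receptor for neuropeptide Y, was the member at an unadjusted p under 0.05 (0.19, SE 0.06, beside 4.87% of all genes at that p). It measured 7.25 and 7.28 in CR-l and 6.84 and 6.76 in Con-l, against 6.96 and 6.72 in CR-s and 6.81 and 6.89 in Con-s, so the higher level was in the CR-l arrays. The leptin difference was 0.42 in CR rats and -0.04 in Con rats. Across this list 14 of 15 genes were higher in CR-l than CR-s (median 0.11) and 7 of 15 in Con-l than Con-s (median -0.04). Enzymes and granule proteins that process prohormones, such as Pam (-0.08, SE 0.04), had a median of 0.00 with 0 of 11 passing.

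Genes of axon growth and guidance were of interest because leptin acts on arcuate axons in the treatment window. Of 29 measured 19 were higher and 10 lower (median 0.02), and 0 passed. Plxnd1, a semaphorin receptor, had the smallest p (0.21, SE 0.06, limma p of 0.0132 unadjusted and 0.913 adjusted), at 7.36 and 7.42 in CR-l and 7.60 and 7.48 in Con-l, against 7.26 and 7.13 in CR-s and 7.20 and 7.42 in Con-s. The lowest leptin array lay under the highest saline array. Robo1, a receptor for the repellent Slit proteins, stood at 0.08 (SE 0.05). In CR rats 24 of the 29 were higher after leptin (median 0.08) and in Con rats 11 (median -0.02). Neurotrophins and their receptors had a median of 0.00, glutamate synapse genes 0.04 (15 of 19 higher) and GABA synapse genes 0.00 (7 of 14 higher), with 0 passing in each.

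In the IGF and insulin axis 12 of 15 genes were higher (median 0.05), with Igfbp3, a carrier of IGFs, at 0.19 (SE 0.05, limma p of 0.00542 unadjusted and 0.913 adjusted) and Igf1 at 0.27 (SE 0.14). Igfbp3 measured 7.19 and 7.09 in CR-l and 6.65 and 6.71 in Con-l, against 6.96 and 6.87 in CR-s and 6.51 and 6.56 in Con-s, with leptin arrays higher within each diet. Of 17 glucocorticoid-response genes 9 were higher and 8 lower (median 0.00), 2 of each at an unadjusted p under 0.05 (beside 2.52% higher and 2.36% lower over all genes): Cdkn1a (a cell cycle inhibitor, 0.18) and Nr3c1 (the glucocorticoid receptor, 0.15) were the higher ones, Zbtb16 (-0.23) and Tsc22d3 (-0.14) the lower. Nr4a1, an immediate early gene, stood at 0.20 (SE 0.06) in a list with a median of 0.01. Of 14 cholesterol synthesis genes 10 were lower (median -0.03), with Fdft1 (squalene synthase) at -0.12, Fdps at -0.11 and Nsdhl at -0.10 below an unadjusted p of 0.05 (2.36% of all genes were lower at that p), and these differences were -0.03, 0.03 and -0.07 in CR rats beside -0.21, -0.24 and -0.13 in Con rats.

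Monoamine genes had 14 of 19 lower (median -0.07), and those with the smallest p were Slc18a2, the vesicular monoamine transporter (-0.20, SE 0.09), and Hdc, which makes histamine (-0.41, SE 0.18). Hdc measured 7.64 and 7.24 in CR-l and 7.73 and 6.89 in Con-l, against 7.66 and 7.88 in CR-s and 7.85 and 7.75 in Con-s, and the lowest arrays were the B replicates of both leptin groups. Without Con-l replicate B the difference was -0.20, and without Con-l replicate A it was -0.62. Interferon and MHC genes had 14 of 17 lower (median -0.07), with Usp18, an interferon-induced protease, at -0.38 (SE 0.20), which was -0.16 without Con-l replicate B and -0.60 without Con-l replicate A. Medians of the energy sensing, circadian clock, thyroid hormone, ER stress, fatty acid, ribosomal protein, respiratory chain, cell cycle, releasing hormone and hypothalamic transcription factor lists lay between -0.03 and 0.02. Over the 41 lists 27 medians were above 0 and 14 below, and 24 of 544 listed genes (4.41%) had an unadjusted p under 0.05, beside 4.87% of all genes.

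Markers of other cells were counted beside the neuron results. Red blood cell genes had the median farthest from 0 of all lists, -0.17 with 7 of 8 lower. Their mean log2 level was 6.67 and 6.38 in CR-l and 7.37 and 7.27 in Con-l, against 6.62 and 6.67 in CR-s and 7.35 and 7.71 in Con-s. The treatments overlapped within each diet, and 0 members had an unadjusted p under 0.05. Meningeal genes had 12 of 16 higher (median 0.06), with the matrix gene Dcn at 0.27 (SE 0.13, and 0.15 to 0.40 without 1 array), and the list mean was 7.46 and 7.61 in CR-l and 8.20 and 7.91 in Con-l, against 7.54 and 7.56 in CR-s and 7.95 and 7.90 in Con-s. Among 17 endothelial and mural genes Myh11 (0.18, SE 0.05), Tagln (0.13) and Tek (0.16) were higher and Kcnj8 (-0.14) lower at an unadjusted p under 0.05 (4.87% of all genes), around a median of 0.01. Myelin genes had a median of 0.00, oligodendrocyte precursors 0.06, astrocytes -0.02 and microglia 0.02. Ependyma and tanycytes had -0.03 and choroid plexus -0.02. Of 11 choroid plexus genes 4 were higher and 7 lower. In 1 of them, Kl (klotho, -0.19, SE 0.05, limma adjusted p = 0.913), all leptin arrays lay below all saline arrays (1.1% of all genes). The part of these cell markers in the peptide values was not tested.

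**Figure D3:**
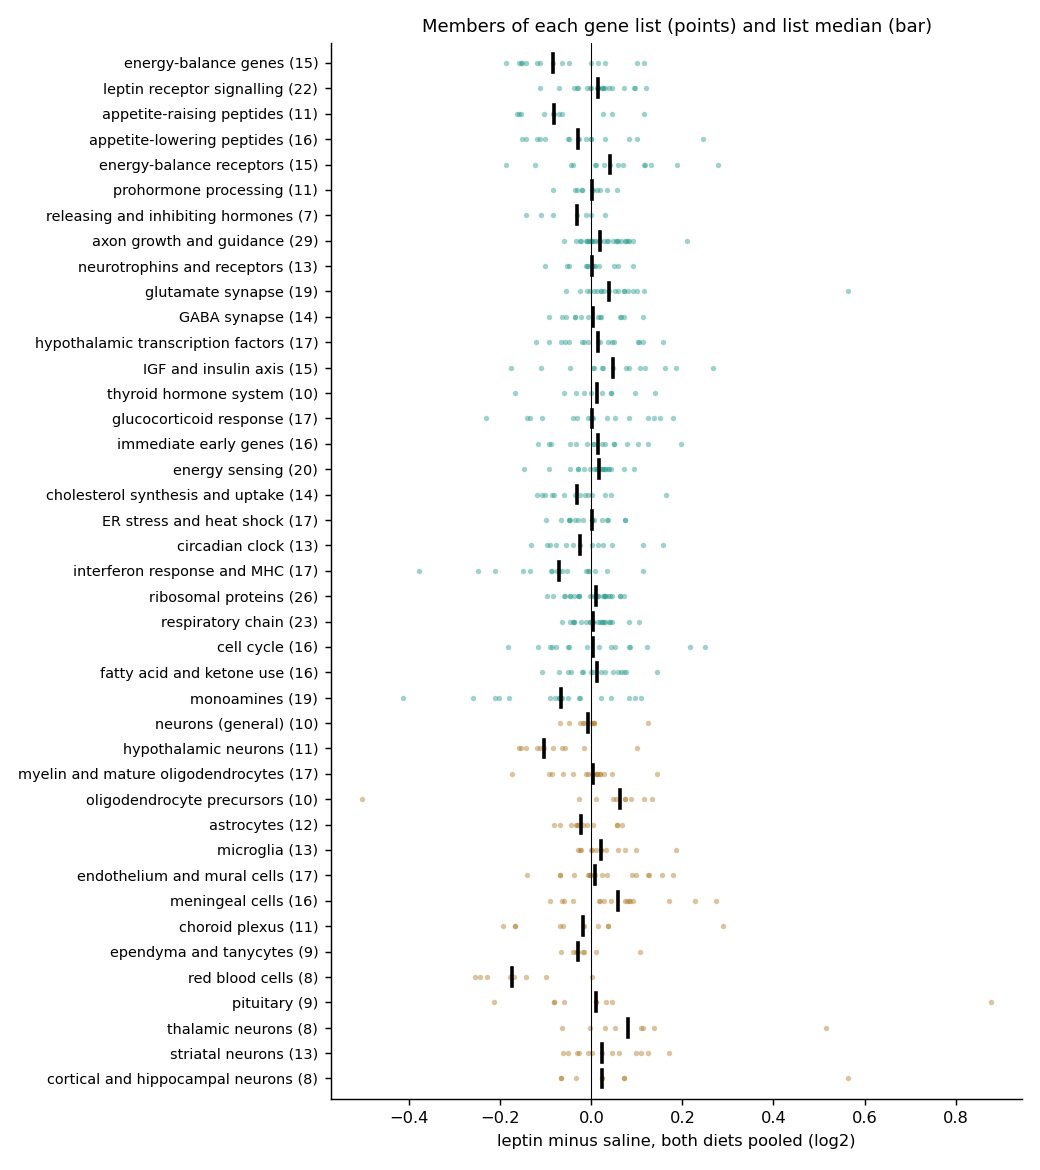
Leptin minus saline difference (log2, horizontal axis) of each measured member (points) of 41 gene lists (rows, members measured in brackets), with the list median as a bar; pathways are in teal and cell type markers in brown. The medians span -0.17 (red blood cells) to 0.08 (thalamic neurons).

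Genes were then followed by their rank. Of the 20 genes with the smallest p, 19 measured below the median gene (7.45 log2), and 10 were olfactory or vomeronasal receptor genes, a family that makes up 8.55% of the 14506 genes and has a median level of 4.17. The first was Or5al5b, at 4.67 and 4.67 in CR-l and 4.53 and 4.60 in Con-l, against 4.93 to 5.09 on the 4 saline arrays (-0.38, SE 0.05, limma adjusted p = 0.763). Its arrays did not overlap between treatments (2.37% of all genes), a separation that the choice by smallest p favours. The arrays give no call of presence, so it was not tested whether such probe sets measure a transcript. Of the 707 genes at an unadjusted p under 0.05, 474 lay below the median level and 233 at or above it.

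Among genes at or above the median level and differing by at least 0.2, the 10 with the smallest p on the higher side were Ccdc107, Antxr1, Haghl, Cd93, Pcdhb21, Adpgk, Clvs2, Mtarc2, Grm2 and Slc14a1. On the lower side they were Retsat, Nqo2, Scrn3, Alox15, Hyal1, Zbtb16, Epdr1, Prph, Sema4f and Ebag9. Each had a limma adjusted p of 0.913. Antxr1, a cell surface receptor for collagen and anthrax toxin, measured 8.41 and 8.65 in CR-l and 8.50 and 8.44 in Con-l, against 8.35 and 8.20 in CR-s and 8.25 and 8.23 in Con-s. Its leptin arrays were all above its saline arrays, and the differences in CR (0.26) and Con rats (0.23) were alike in size (pooled 0.24, SE 0.07). The treatments did not overlap either for Haghl (0.27 in CR, 0.13 in Con), the protocadherin Pcdhb21 (0.27 and 0.13) and, on the lower side, Scrn3 (-0.18 and -0.31), whose differences were less alike between the diets. Over all genes 2.37% did not overlap, and the choice of these genes by smallest p favours such a separation. Cd93, a receptor of endothelial and myeloid cells, was higher within each diet (0.29 in CR and 0.32 in Con) while its leptin and saline arrays overlapped across the diets.

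Other leading genes drew on part of the arrays. Retsat, which saturates retinol, measured 9.32 and 9.26 in CR-l and 9.86 and 9.87 in Con-l, against 10.35 and 9.95 in CR-s and 9.86 and 9.82 in Con-s. Its pooled difference of -0.42 (SE 0.09) was thus -0.86 in CR rats and 0.02 in Con rats. Ccdc107 was the mirror image, at 10.80 and 10.87 in CR-l and 10.31 and 10.17 in Con-l, against 9.74 and 10.23 in CR-s and 10.25 and 10.16 in Con-s (0.86 in CR, 0.03 in Con). Eif3i, a subunit of a translation initiation factor, was not among the genes listed above and was named for its interaction p. That choice favours genes whose leptin difference is unlike between the diets. Its arrays measured 6.97 and 7.09 in CR-l and 6.65 and 6.67 in Con-l, against 6.97 and 7.07 in CR-s and 7.36 and 7.25 in Con-s (0.01 in CR, -0.65 in Con).

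The largest pooled differences depended on single arrays. Adpgk, an ADP-dependent glucokinase, measured 9.19 and 9.31 in CR-l and 7.99 and 9.77 in Con-l, against 8.03 and 8.02 in CR-s and 7.96 and 7.89 in Con-s. Leptin arrays were thus high except Con-l replicate A, which lay at the saline level, and the difference was 1.09 (SE 0.34, limma adjusted p = 0.913). Without that array it was 1.53 with a limma adjusted p of 0.00137, and it was the gene that passed then, while without Con-l replicate B it was 0.64. Cga, the common subunit of pituitary glycoprotein hormones, measured 6.01 and 5.86 in CR-l and 9.19 and 6.19 in Con-l, against 6.04 and 5.84 in CR-s and 6.03 and 5.83 in Con-s, so its 0.88 (SE 0.56) rests on Con-l replicate A and was 0.13 without it. Without Con-l replicate B the fit took that lone array as the group and called Cga (1.63, limma adjusted p = 0.0147). On Con-l replicate A the mean of the 9 pituitary markers, Cga included, was 6.01, where the other arrays had 5.50 to 5.69. The median deviation of the 9 markers from their means over all arrays was 0.01 there, inside the -0.12 to 0.10 of the other arrays. Gh1 (5.69) and Prl (4.35) also lay within the range of the other arrays.

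Grm2, a glutamate receptor that dampens release, measured 8.41 and 8.24 in CR-l and 7.85 and 8.14 in Con-l, against 8.06 and 7.19 in CR-s and 7.08 and 7.77 in Con-s (0.64, SE 0.22, and 0.42 to 0.85 without 1 array). Its lowest arrays were Con-s replicate A and CR-s replicate B. The same arrays were lowest for Slc17a7, a glutamate transporter of the cortical and hippocampal list (7.39 and 7.65, where the others had 8.24 to 9.25), and for Prkcd, a kinase abundant in thalamus (8.34 and 8.33, where the others had 8.95 to 10.30). The pooled differences of Slc17a7 (0.56, SE 0.41) and Prkcd (0.52, SE 0.49) did not pass, and without 1 array they ranged from 0.18 to 0.95 and from 0.09 to 0.95. The thalamic marker list had 6 of 8 higher (median 0.08) and the cortical and hippocampal list 5 of 8 (median 0.02). Their part in the Grm2 value was not tested. Alox15, a lipoxygenase, measured 7.64 and 7.15 in CR-l and 8.98 and 8.58 in Con-l, against 7.65 and 7.82 in CR-s and 9.24 and 9.55 in Con-s, lower after leptin within each diet (-0.48, SE 0.14) beside a larger step between the diets. Nqo2, a quinone reductase, measured 8.24 and 8.93 in CR-l and 8.99 and 8.66 in Con-l, against 8.92 and 9.01 in CR-s and 9.59 and 9.43 in Con-s (-0.53, SE 0.15). Its lowest value was CR-l replicate A and its highest the Con-s arrays, and CR-l and CR-s overlapped. Zbtb16, a zinc finger factor induced by glucocorticoids, measured 8.35 and 8.52 in CR-l and 7.70 and 7.40 in Con-l, against 8.49 and 8.51 in CR-s and 7.97 and 7.93 in Con-s. The Con-l arrays lay below the Con-s arrays (-0.40) while the CR arrays overlapped (-0.07). The 5 largest differences with an unadjusted p under 0.05, at any level, were Adpgk, Grm2, Lrrc69 (0.48), Akr1b10 (0.47) and Cd244l1 (0.47) on the higher side and Nqo2, Alox15, Or4f60 (-0.47), Nat8f2 (-0.47) and Or9a4 (-0.42) on the lower. A second, dimmer probe set of Cd244l1 gave 0.10.

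**Figure D4:**
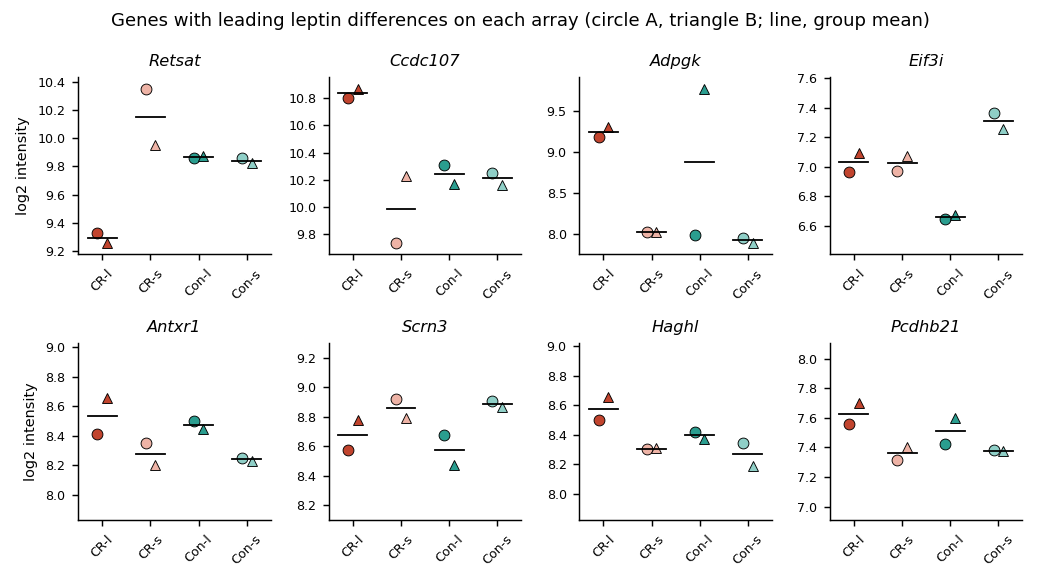
Log2 intensity (vertical axis) of 8 genes on each array, by group (horizontal axis). Eif3i was named for its interaction p, and the others are among the leading leptin differences. Circles are replicate A, triangles replicate B, and lines the group means. In Retsat and Ccdc107 the CR-l and CR-s groups part and the Con groups coincide, in Eif3i the reverse, and in Adpgk the Con-l replicates lie at 7.99 and 9.77.

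Pooling presumes a leptin difference that the diets share, and the arrays allow a look at this because CR-l minus CR-s and Con-l minus Con-s have no array in common. Across 14506 genes the 2 differences correlated at 0.02 (Pearson, over genes, which are not independent and share the authors' normalization) and had the same sign in 7311 (50.4%). The share was 49.4% in genes above the median level and 51.4% in those below. In CR rats 0 genes (0%) passed (limma), while an unadjusted p under 0.05 was found for 849 (5.85%, with 3.05% higher and 2.81% lower, and 1404 or 9.68% without CR-s replicate A), of which 441 (51.9%) had the same sign in Con rats. In Con rats the passing count was likewise 0 (limma) and the unadjusted one 608 (4.19%, with 2.18% higher and 2.01% lower), of which 262 (43.1%) had the same sign in CR rats. The 68 genes under that p in both diets were 8.01% of the first set and 11.2% of the second, and 37 of them had the same sign. Both contrasts use one estimate of the spread, so a gene with a small spread tends to enter both.

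Those 37 genes, selected here on their values, include dim olfactory receptor genes, Or5al5b among them. They also include Dusp6 and Hmgb2, whose mean levels (7.41 and 6.08) lay below the median gene (7.45). Dusp6, a dual-specificity phosphatase, stood at 7.55 and 7.54 in CR-l and 7.43 and 7.47 in Con-l, against 7.34 and 7.32 in CR-s and 7.34 and 7.28 in Con-s (0.18, SE 0.04). Hmgb2, a chromatin protein of dividing cells, stood at 6.23 and 6.38 in CR-l and 6.15 and 6.14 in Con-l, against 6.08 and 5.94 in CR-s and 5.86 and 5.82 in Con-s (0.30, SE 0.05). In both genes all leptin arrays were above all saline arrays (1.27% of all genes), a separation that the selection in both diets favours. Both had a limma adjusted p of 0.913.

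Some lists with a pooled median near 0 had different counts in the diets. Of 17 myelin genes 2 were higher after leptin in CR rats (median -0.12) and 15 in Con rats (median 0.05), with the same sign in 4. Their mean log2 level was 11.14 and 11.1 in CR-l, against 11.13 and 11.29 in CR-s. It was 11.58 and 11.62 in Con-l, against 11.46 and 11.6 in Con-s. So 1 saline array in each diet, CR-s replicate B and Con-s replicate A, stood apart from the others of that diet. Meningeal genes were higher in 6 of 16 in CR rats (median -0.02) and in 14 in Con rats (median 0.10). In Con rats their mean was 8.20 on Con-l replicate A and 7.90 to 7.95 on the other arrays. Striatal neuron markers were higher in 5 of 13 in CR rats (median -0.03) and in 12 in Con rats (median 0.11). Their mean log2 level was 8.01 and 7.98 in CR-l and 8.30 and 7.92 in Con-l, against 8.17 and 7.99 in CR-s and 7.94 and 7.96 in Con-s, so in Con rats 1 array, Con-l replicate A, stood above the others. Glutamate synapse genes were higher in 17 of 19 in CR rats (median 0.08) and in 11 in Con rats (median 0.03). No list was tested for such a difference.

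The test of whether leptin acted differently in the 2 diets, the interaction, also passed in 0 genes (0%, limma), with 747 (5.15%, with 2.42% higher and 2.73% lower, and 1126 without CR-s replicate A) at an unadjusted p under 0.05 and a smallest adjusted p of 0.278. That smallest p was of Or5b104, a dim olfactory receptor gene (0.58 in CR, -0.45 in Con), followed by Or5p59, Eif3i, Or7e171b and Pvr. Pvr, the poliovirus receptor homologue, measured 7.41 and 7.67 in CR-l and 7.75 and 7.39 in Con-l, against 6.78 and 6.72 in CR-s and 7.81 and 7.80 in Con-s (0.79 in CR, -0.23 in Con, interaction 1.03, limma adjusted p = 0.898). The CR-s arrays stood below all others. Npy (0.21 in CR, -0.34 in Con) and Oxt (0.05 and -0.29) were the energy-balance genes at an unadjusted interaction p under 0.05, 0.0222 and 0.0337, and both had a limma adjusted p of 0.898.

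**Figure D5:**
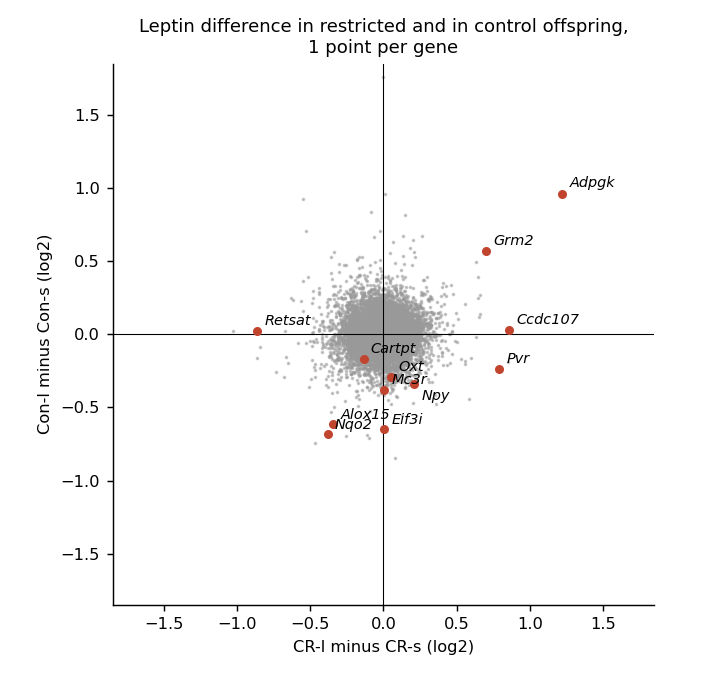
Leptin difference in CR rats (CR-l minus CR-s, log2, horizontal axis) against that in Con rats (Con-l minus Con-s, log2, vertical axis), 1 point per gene for 14506 genes, with named genes in red. Adpgk and Grm2 lie along the shared direction, while Retsat, Ccdc107 and Eif3i lie near an axis; over all genes the correlation is 0.02.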

How the data were processed

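Per the submitters' processing notes, the authors processed the arrays with RMA in Affymetrix Expression Console (no version is stated). The values as deposited are probe set intensities on the linear scale, and they were log2-transformed here before any test without further normalization. Of 29215 probe sets, 15310 carried 1 gene symbol and 323 several, and where a gene had several probe sets the brightest was kept, giving 14506 genes. Symbols were updated through the Entrez number (15279), an accession (6) or kept (25). No detection call, depth or dim filter applies, and the number of arrays limits precision.

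A limma 3.58.1 model (R 4.3.3) with 4 group means was fitted to the 8 arrays (4 residual and 3.21 prior degrees of freedom), two-sided, with Benjamini-Hochberg adjustment over all genes and a threshold of 0.05. The fit was tested on simulated data with shifts larger than any pooled leptin difference seen here. Its ability to recover smaller differences was not tested. Members, lists and tests were chosen with earlier results of these data known. Genes were named by rule: the energy-balance genes, the 10 smallest p in each direction (difference at least 0.2, level at or above the median gene), the 5 largest in each direction at an unadjusted p under 0.05, up to 3 per list, and the 5 smallest interaction p. Prl, Or1o2, Ptpn1, Socs1, Igf1, Tsc22d3, Tek, Or5al5b, Dusp6 and Hmgb2 fall outside it and were named after their values were seen. Lists were given no test, and no p was adjusted over a list. Promoters came from RefSeq (GRCr8). Alternatives are given at the end.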

Additional observations from a re-analysis of the deposited data

How the results depend on the processing

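The count of genes passing for leptin against saline was 0 with trend and robust settings, the upper 60 percent of genes by mean, all 29215 probe sets, the mean of a gene's probe sets, quantile normalization, cyclic loess, median centring and the additive model, at smallest adjusted p values of 0.243 to 0.943. The letters A and B are not stated to mark a litter or batch: deviations of A replicates correlated at -0.0606 to 0.109 between groups, and a fit with the letters as a replicate block gave a count of 0 (790 genes at an unadjusted p under 0.05). Without 1 array the count was 0 to 1 for pooled leptin (Adpgk without Con-l replicate A, Cga without Con-l replicate B), 0 to 1 in CR rats (Adpgk, without either Con-l array), 0 to 1 in Con rats (Adpgk or Cga) and 0 to 1 for the interaction (Cga). Without CR-s replicate A, 1146 genes had an unadjusted pooled p under 0.05, against 707. Over 153 named genes 20 of 2555 values under an alternative turned sign. Stat3 stood at -0.0020 with quantile normalization and -0.00066 with cyclic loess. Without 1 array the pooled difference ranged from -0.15 to 0.020 for Npy, -0.18 to 0.011 for Agrp, -0.038 to 0.035 for Crh, -0.012 to 0.24 for Mc4r, -0.013 to 0.041 for Stat3, -0.047 to 0.11 for Socs3, -0.00032 to 0.11 for Prcp, -0.0083 to 0.16 for C1qa, -0.033 to 0.23 for Tyrobp, -0.096 to 0.015 for Rspo3, -0.018 to 0.36 for Gng7 (0.17 with all arrays), -0.0082 to 0.22 for Drd1 and -0.064 to 0.00053 for Or5p59. The cause was not tested. With 2 arrays a group, a left-out array leaves a group of 1, taken to vary like the others.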
